A study of Rattus norvegicus with 24 samples.

Results

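Perchlorate was added to the drinking water of rats already on an iodine-deficient diet, and their thyroid transcripts after 14 days were set against those of rats on the same diet with normal water. The comparison rests on 6 of the 24 arrays of the study, chosen by their titles: 3 arrays of diet with perchlorate (replicates 27, 29 and 30) and 3 of diet alone (replicates 32, 33 and 34). All animals were adult male Sprague-Dawley rats, and both groups were fed the iodine-deficient diet for 2 months and 14 days. The first group also had 95 mg of potassium perchlorate per liter of drinking water over the last 14 days. The same exposure on a normal diet (perchlorate alone against untreated control, 3 arrays each at day 14) and after 1 day on the deficient diet (diet with perchlorate against diet alone, 3 arrays each) served as companions. All 8 groups of the study share the housing and the whole thyroid as tissue, and the labels do not say whether an array holds 1 animal or a pool.

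The thyroid follicular cell takes up iodide from blood through the sodium iodide symporter, couples it to thyroglobulin, and releases thyroid hormone from that store. Perchlorate competes with iodide at the symporter, while an iodine-deficient diet lowers the supply of iodide itself, so both act on the same step. When hormone falls, the pituitary releases more thyrotropin (TSH), under which the gland raises iodide uptake and grows, with division of follicular cells and growth of vessels and connective tissue. The design text asks how the diet and perchlorate compare, and the present comparison asks what perchlorate added to a gland already short of iodine.

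Levels are those of probe sets, groups of short probes meant for 1 transcript, though some are annotated to several genes. Values are log2(intensity + 16) with quantile normalization between arrays. A log2 fold change subtracts the mean of diet alone from that of diet with perchlorate on this scale, which shrinks the change of dim transcripts. The trimmed mean intensity of the 6 arrays ran from 383.2 to 483.1 as deposited, and correlations between arrays of 1 group ran from 0.98 to 0.982. Among the other arrays, perchlorate replicate 18 and control replicate 22 of day 1 stood apart from the rest. They take no part in the comparison of diet with perchlorate and diet alone except through the spread estimated over all 24 arrays, so counts are also given without them. Follicular cell genes were bright in both groups: Tg averaged 13.94 ± 0.03 in diet with perchlorate and 13.66 ± 0.02 in diet alone (SD, n = 3 each), and Pax8, a thyroid transcription factor gene, 12.31 ± 0.07 and 12.35 ± 0.07. Pth, the parathyroid hormone gene, and Calca, the calcitonin gene of C cells, were also bright, so the samples held parathyroid tissue and C cells beside the follicles. Pax8 and Calca were chosen after their values were seen.

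Few genes passed the test. Itih3, Cthrc1, Igfbp3, Ccn5 and Dkk3, which encode secreted proteins, rose together with Cxcr4, Ahnak2, Ninl and Litaf, and Defb1, Gna14, Shmt1 and Selenbp1 fell. The call was an adjusted p under 0.05 in limma over all 31042 probe sets. On that rule 19 were called, 13 higher and 6 lower in diet with perchlorate (0.0612% of those tested, and 2139 at an unadjusted p under 0.05). Counted as genes, each by its brightest probe set with 1 symbol, 13 of 14217 were called. Of these, 9 rose (0.0633%) and 4 fell (0.0281%). For all 13 the 3 arrays of each group did not overlap, beside 12% higher and 11.5% lower over all genes. Since the 13 were picked by a test on the same arrays, the lack of overlap adds no support. The count depends on the estimate of the spread and on single arrays. It was 152 with only the day 14 arrays in the fit and 111 without the 2 arrays that stood apart. It fell to 2, those of Itih3 and Defb1, without replicate 27 or 30 of diet with perchlorate or replicate 32 or 34 of diet alone. Without normalization between arrays the median over all probe sets was -0.11, and 2 were called higher and 7 lower.

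**Figure D1:**
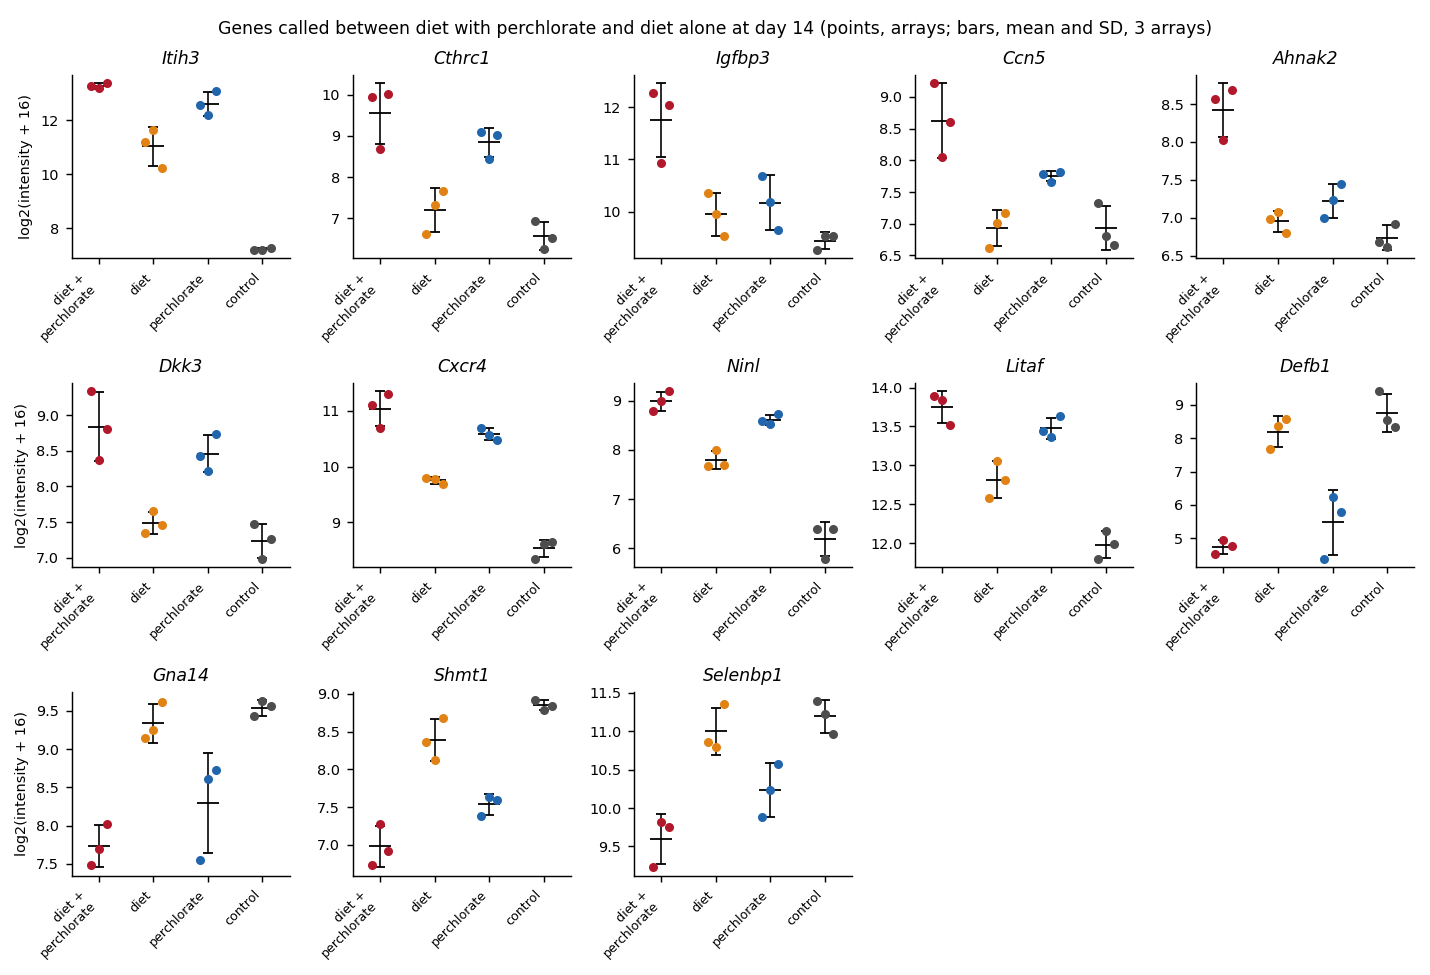
Normalized log2(intensity + 16) of the 13 called genes in diet with perchlorate, diet alone, perchlorate alone and control at day 14, with a point per array and bars for the mean and SD of 3 arrays. For each gene the 3 red points of diet with perchlorate and the 3 orange points of diet alone do not overlap. The genes were picked by a test on these same arrays.

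Itih3 encodes a heavy chain of inter-alpha-trypsin inhibitor, a secreted protein that is joined to hyaluronan in the extracellular matrix. Its values were 13.26, 13.19 and 13.39 in diet with perchlorate, against 11.20, 11.65 and 10.25 in diet alone. The arrays of diet with perchlorate lay close together and far above all 3 of diet alone, which were spread more widely. Itih3 rose by 2.25 on the log2 scale (SE 0.28, a fold of 4.75, adjusted p = 0.00146 in limma). Perchlorate alone and control at day 14 averaged 12.62 ± 0.44 and 7.23 ± 0.04 (SD, n = 3 each), so the 4 groups ran from diet with perchlorate through perchlorate alone and diet alone to control. On the normal diet the rise was 5.40 (SE 0.28, a fold of 42.1, adjusted p = 3.41e-10). The call held under 16 of 17 alternatives, with a highest adjusted p = 0.0521 in a fit of only the groups compared.

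Defb1 encodes an antimicrobial peptide, a beta-defensin made by epithelia. It was at 4.53, 4.95 and 4.76 in diet with perchlorate, against 7.67, 8.35 and 8.56 in diet alone. In diet with perchlorate it was close to log2 of 16, the floor of the scale, in every array, while all arrays of diet alone were well above it. It fell by 3.45 (SE 0.43, adjusted p = 0.00146), and the call held under all 17 alternatives. Near the floor the size of the fall depends on the pseudocount, and the log2 fold change ran from -4.58 to -2.19 over these alternatives. On the normal diet Defb1 fell by 3.28 (SE 0.43, adjusted p = 0.0003), with 5.48 ± 0.97 in perchlorate alone and 8.76 ± 0.57 in control.

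Among secreted proteins of connective tissue, Cthrc1, which encodes a collagen triple helix repeat protein of activated fibroblasts, was at 9.94, 8.69 and 10.01 in diet with perchlorate, against 6.61, 7.31 and 7.67 in diet alone. It rose by 2.35 (SE 0.39, a fold of 5.10, adjusted p = 0.0306). Replicate 29 of diet with perchlorate was the lowest of its group for Cthrc1 and likewise for the next 3 genes. Igfbp3, a binding protein that carries insulin-like growth factors, was at 12.28, 10.94 and 12.04 against 10.36, 9.95 and 9.54, a rise of 1.81 (SE 0.34, adjusted p = 0.0465). Its second probe set gave 1.58 and was not called. Ccn5, a matrix-associated signalling protein of the CCN family, was at 9.22, 8.05 and 8.61 against 6.62, 7.01 and 7.17, a rise of 1.69 (SE 0.31, adjusted p = 0.0414). Dkk3, a secreted protein of the Dickkopf family, was at 9.33, 8.37 and 8.81 against 7.35, 7.66 and 7.46, a rise of 1.34 (SE 0.25, adjusted p = 0.0465). Only 1 of the 4 Dkk3 probe sets was called, and the lowest of them was at -0.06.

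Cxcr4, the receptor for the chemokine CXCL12, was at 11.11, 10.69 and 11.30 in diet with perchlorate, against 9.80, 9.77 and 9.68 in diet alone. The arrays of diet alone were nearly equal, and the lowest array of diet with perchlorate was well above them. Cxcr4 rose by 1.28 (SE 0.24, adjusted p = 0.0465) and was called on 2 of 3 probe sets. Genes of intracellular proteins were called as well. Ahnak2, a very large scaffold protein, rose by 1.47 (8.43 ± 0.35 against 6.95 ± 0.14, adjusted p = 0.0465). Ninl, a protein of the centrosome, rose by 1.20 (8.99 ± 0.19 against 7.80 ± 0.18, adjusted p = 0.0393). Litaf, a protein of late endosome and lysosome membranes, rose by 0.93 (13.75 ± 0.20 against 12.82 ± 0.24, adjusted p = 0.0393).

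Beside Defb1, 3 genes fell. Gna14, a G protein alpha subunit of the Gq family, was at 7.48, 7.69 and 8.02 in diet with perchlorate, against 9.14, 9.25 and 9.62 in diet alone. It fell by 1.61 (SE 0.29, adjusted p = 0.0403) on 1 of 2 probe sets, the other being at -1.32. Shmt1, the cytosolic serine hydroxymethyltransferase that feeds the folate cycle, was at 6.74, 7.28 and 6.92 against 8.36, 8.12 and 8.68, a fall of 1.40 (SE 0.22, adjusted p = 0.0306). Selenbp1, a selenium-binding protein that oxidises methanethiol in humans, was at 9.23, 9.82 and 9.75 against 10.86, 10.79 and 11.35, a fall of 1.40 (SE 0.23, adjusted p = 0.0306). In all 3 genes the highest array of diet with perchlorate was below the lowest of diet alone.

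Another 3 genes were called on a probe set other than their brightest, and they are named after their values were seen. Inhba, the beta A subunit of activins, was at 7.91, 7.37 and 8.07 in diet with perchlorate, against 5.90, 6.30 and 6.19 in diet alone (log2 fold change 1.65, adjusted p = 0.0306). Its brightest probe set was at 0.68 with an adjusted p = 0.588. Col5a2, a chain of fibrillar type V collagen, gave 1.12 (adjusted p = 0.0414) on the called probe set and 1.16 (adjusted p = 0.0579) on the brighter one. Pkp4, a plakophilin of cell junctions, gave -1.46 (adjusted p = 0.0416) on the called probe set and -0.17 (adjusted p = 0.988) on the brighter one, so its probe sets disagree.

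Just outside the threshold, 31 genes had an adjusted p between 0.05 and 0.10, 21 of them higher and 10 lower. Those named in this paragraph were chosen after their values were seen. On the higher side stood Olr1, a scavenger receptor for oxidised lipoprotein, at 2.24 (adjusted p = 0.0579), and Grem1, a secreted antagonist of bone morphogenetic proteins, at 1.56 (0.0825). With them were the cytokine Il6 at 1.32 (0.0814), Fhl2, a LIM domain cofactor, at 1.27 (0.0605), and Gadd45b, a stress-induced gene, at 1.09 (0.0548). The somatostatin receptor gene Sstr1 was at 2.14 (0.0609), but only 1 of its 3 probe sets had that sign. On the lower side Cxcl14, a chemokine of epithelia, was at -1.51 (adjusted p = 0.0529).

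Promoter sequence was available for 7 of the 13 called genes, from RefSeq on assembly GRCr8, as 250 bases before to 50 after the annotated start. The promoters of Itih3, the gene with the smallest adjusted p among rises, and of Cxcr4, the only one of the 7 with a searched motif, are given 5′ to 3′, with any motif in capitals. Itih3 lies at chr16:6123325-6123624 and Cxcr4 at chr13:42634239-42634538, both on the minus strand.
Itih3: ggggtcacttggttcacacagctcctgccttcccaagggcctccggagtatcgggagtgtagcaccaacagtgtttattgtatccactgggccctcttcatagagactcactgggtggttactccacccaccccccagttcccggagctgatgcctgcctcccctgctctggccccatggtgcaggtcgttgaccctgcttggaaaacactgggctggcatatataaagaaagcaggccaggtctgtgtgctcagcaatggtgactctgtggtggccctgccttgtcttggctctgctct
Cxcr4: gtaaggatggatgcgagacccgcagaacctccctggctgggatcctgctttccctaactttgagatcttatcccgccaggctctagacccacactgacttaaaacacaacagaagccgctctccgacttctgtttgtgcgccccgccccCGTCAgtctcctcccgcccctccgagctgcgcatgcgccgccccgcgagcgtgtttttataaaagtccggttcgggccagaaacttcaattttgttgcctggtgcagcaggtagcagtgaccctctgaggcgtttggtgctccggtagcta
A set of 3 motifs was searched on both strands. The AP-1 site TGANTCA was in 0 of the 7 promoters and in 7.33% of all 33469 promoters of this length. The TEAD site GGAATG was in 0 of 7 and in 14.2% of all. The short cAMP response element TGACG was in 1 of 7, that of Cxcr4 on its reverse strand (capitals), and in 21.2% of all. A match is a description of these letters only.

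The genes of iodide handling and hormone synthesis did not pass the test. Of 14 measured members 0 were called, 8 were positive and 6 negative, and the median log2 fold change was 0.10 (-0.09 to 0.28 under the alternatives), against -0.01 over all genes. Slc5a5, the sodium iodide symporter itself, was at 12.45, 12.74 and 12.75 in diet with perchlorate, against 11.85, 12.23 and 11.79 in diet alone. The groups did not overlap, though the gap was small beside the spread of diet alone, and the log2 fold change was 0.69 (SE 0.19, adjusted p = 0.23). On the normal diet Slc5a5 rose by 1.52 (adjusted p = 0.000157), with 12.46 ± 0.17 in perchlorate alone and 10.95 ± 0.30 in control. The difference between the 2 diets in that effect was -0.83 (SE 0.27) with an adjusted p = 1. Tg, thyroglobulin, was at 13.98, 13.91 and 13.94 against 13.69, 13.65 and 13.65, with a difference of 0.28 on the log2 scale (SE 0.11, adjusted p = 0.588), while its second probe set was at -0.17.

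Crym, mu-crystallin, which binds thyroid hormone in the cytosol, had the largest positive log2 fold change of the hormone synthesis list. It was at 10.51, 9.94 and 10.52 in diet with perchlorate, against 7.45, 8.80 and 6.31 in diet alone. The groups did not overlap, but diet alone was widely spread, and the log2 fold change of 2.80 (SE 0.56) had an adjusted p = 0.0609. Perchlorate alone and control were at 7.84 ± 0.92 and 7.31 ± 0.99, so diet with perchlorate was the highest of the day 14 groups for this gene. The TSH receptor gene Tshr was at 0.36 (adjusted p = 0.93), the potassium channel subunit Kcnq1 at 0.44, the chloride channel Ano1 at 0.29, the anion exchanger Slc26a4 at 0.08 and the deiodinase Dio2 at 0.13. Negative values were those of the deiodinase Dio1 (-0.87, adjusted p = 0.775), the iodotyrosine deiodinase Iyd (-0.24), the dual oxidase Duox2 (-0.09) and its maturation factor Duoxa1 (-0.05). The hormone transporter Slc16a10 was at -0.25 and the channel subunit Kcne2 at -0.28.

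Thyroid transcription factors and other follicular genes lay on both sides. Foxe1, a forkhead factor that drives thyroid genes, was at 12.57, 12.61 and 12.36 in diet with perchlorate, against 13.24, 12.94 and 13.02 in diet alone (log2 fold change -0.56, adjusted p = 0.19). Nkx2-1 was at -0.38 (adjusted p = 0.58), also without overlap, and Pax8 at -0.04. The keratin genes Krt8 and Krt18 of simple epithelia were at 0.46 and 0.48. Over the list of 10 measured genes 3 were higher and 2 lower without overlap, beside 12% and 11.5% of all genes. The median was 0.10 (-0.02 to 0.16 under the alternatives).

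Downstream of TSH, 0 of 20 measured genes of the receptor and cAMP pathway were called (median 0.14), and 5 were higher without overlap (3 without normalization between arrays). The shares over all genes were 12% higher and 11.5% lower, and 5.36% and 19.7% without that normalization. Pde4b, a phosphodiesterase that degrades cAMP, was at 10.34 ± 0.14 against 9.69 ± 0.04 (log2 fold change 0.65, adjusted p = 0.0975). Immediate early genes, which switch on within minutes of growth signals, had a median of 0.27 over 19 measured, with 6 higher and 1 lower without overlap (4 and 1 without normalization) and 0 called. Fos was at 10.23, 9.67 and 10.08 against 8.23, 8.93 and 8.51 (log2 fold change 1.44, adjusted p = 0.182), and Egr1 at 1.01 (adjusted p = 0.462). Of 11 measured thyroid-hormone-responsive genes and receptors 0 were called, 0 were higher and 5 lower without overlap, and the median was -0.34. That median was -0.11 with a pseudocount of 1, -0.02 without diet replicate 32, and -0.07 and -0.18 without replicate 29 or 30 of diet with perchlorate. The 5 include Thrsp, a lipogenic gene induced by thyroid hormone in liver (-1.21, adjusted p = 0.285), the hairless corepressor Hr (-0.74), the hormone-induced factor Klf9 (-0.52) and the receptor Thrb (-0.51). Thrsp was at 11.21, 11.02 and 10.47 in diet with perchlorate, against 11.92, 11.84 and 12.59 in diet alone. Adipocytes also express Thrsp, and adipocyte markers were lower in the same arrays, as given further on. Their part in this value was not tested.

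Most genes of dividing cells had positive log2 fold changes, none of them called. Of 50 measured genes of mitosis and cytokinesis 48 were positive, 16 were higher and 0 lower without overlap, and the median was 0.50. Over all genes 12% were higher and 11.5% lower without overlap. Without normalization between arrays these shares were 5.36% and 19.7%, and 5 of the 50 were higher and 1 lower. Ccna2, cyclin A2, was at 8.47, 7.5 and 8.29 against 6.83, 7.47 and 6.86 (log2 fold change 1.03, adjusted p = 0.67), and Cenpf, a kinetochore protein, at 1.00 (adjusted p = 0.482) with overlap. Of 30 measured genes of DNA replication 12 were higher and 0 lower without overlap (7 and 1 without normalization, median 0.36), among them the helicase subunits Mcm6 at 0.87 (adjusted p = 0.51) and Mcm3 at 0.85 (adjusted p = 0.454). On the normal diet the median of the mitosis list was 0.97, with 39 of 50 higher without overlap (12.7% of all genes) and 7 called higher (2.11% of all genes). At day 1 on the deficient diet it was 0.03.

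**Figure D2:**
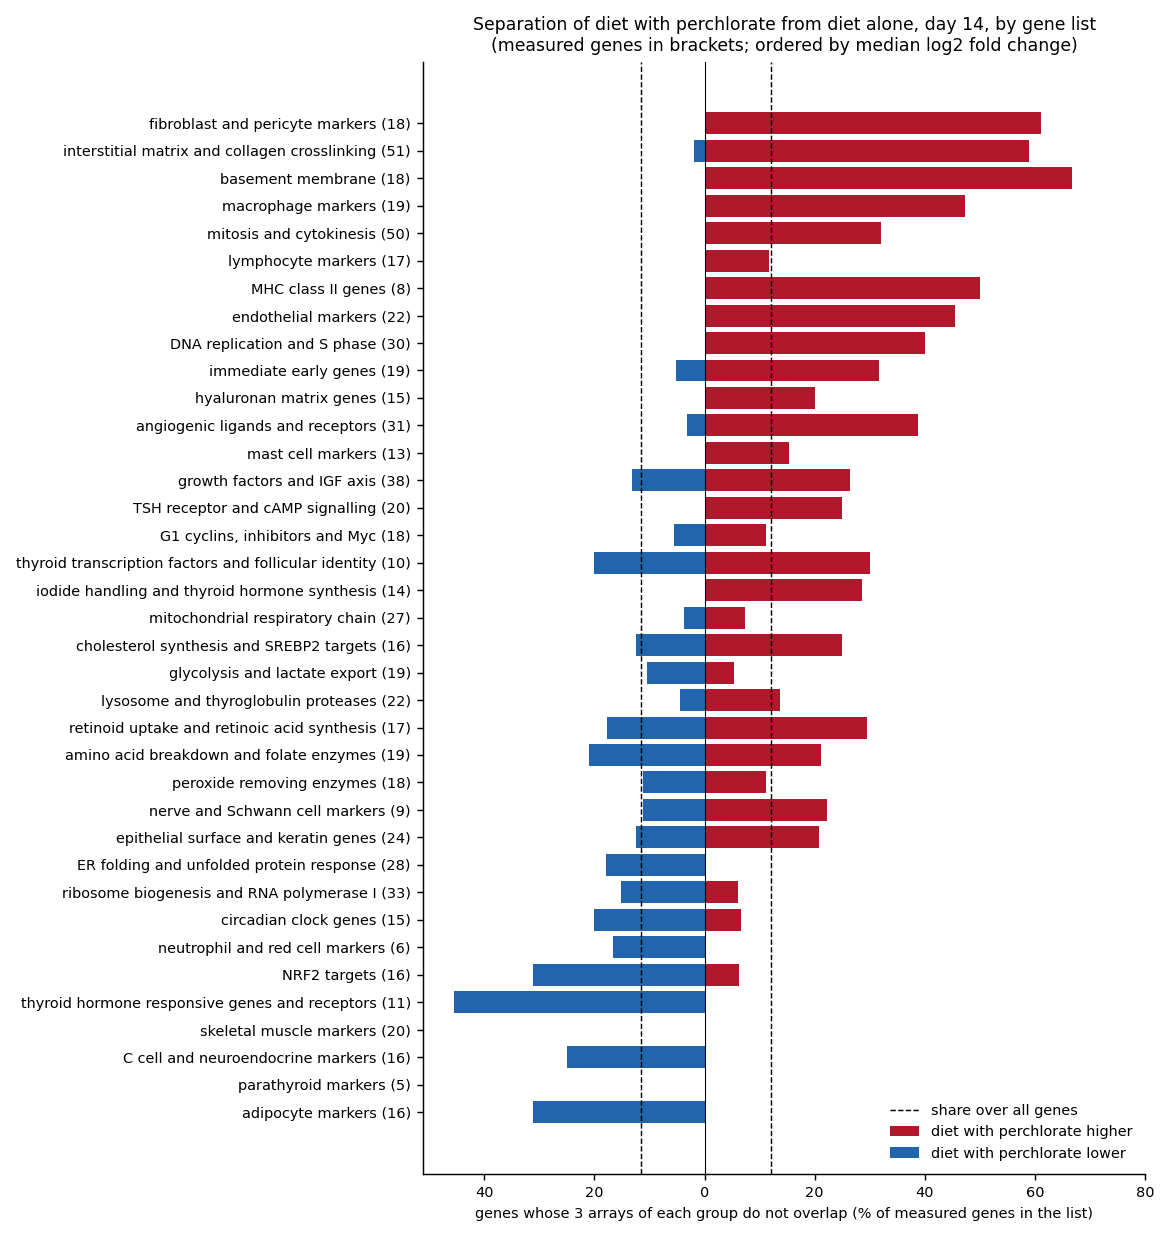
Share of the measured genes of each of 37 lists whose 3 arrays of diet with perchlorate all lay above (red, to the right) or all below (blue, to the left) the 3 arrays of diet alone, in percent, with dashed lines at 12% and 11.5%, the shares over all genes. The basement membrane, fibroblast and interstitial matrix lists reach furthest to the right, and the thyroid-hormone-responsive list furthest to the left.

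Connective tissue lists had the highest shares of genes without overlap among the 37 lists, nearly all of them higher in diet with perchlorate. In whole thyroid, more cells of a type and more RNA per cell cannot be told apart. Of 51 measured genes of interstitial matrix and collagen crosslinking 30 were higher and 1 lower without overlap, beside 12% and 11.5% of all genes. Of the 51, 43 were positive, and the median was 0.55 (0.41 to 0.64 under the alternatives). By brightest probe set 0 of them were called over all probe sets, 4 with only the day 14 arrays in the fit. In that fit 76 of all 14217 genes were called higher. Without normalization between arrays 27 of the 51 were higher and 2 lower without overlap, beside 5.36% and 19.7% of all genes. Lox, the enzyme that crosslinks collagen and elastin, was at 11.13, 9.59 and 10.18 in diet with perchlorate, against 8.84, 9.09 and 9.0 in diet alone (log2 fold change 1.32, SE 0.27, adjusted p = 0.0609). Col5a2 was at 12.63, 11.81 and 12.18 against 11.18, 11.16 and 10.80. Replicate 27 was the highest of its group in both genes and replicate 29 the lowest, with every array above those of diet alone. The elastin gene Eln was at 1.18 (adjusted p = 0.0975), the small proteoglycan Bgn at 1.09 (0.101) and fibrillin 1, Fbn1, at 1.00 (0.15). The large chondroitin sulfate proteoglycan Vcan, which binds hyaluronan, was at 1.31 (adjusted p = 0.188). Of its 5 probe sets 4 were positive, this one included. Chosen after their values were seen, the collagen genes Col1a1 and Col3a1 were at 0.82 and 0.54.

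Basement membrane genes showed the largest share of the lists: 12 of 18 measured were higher and 0 lower without overlap, with a median of 0.52 and 0 called. Over all genes 12% were higher and 11.5% lower without overlap. Without normalization between arrays 9 of the 18 were higher and 2 lower, beside 5.36% and 19.7% of all genes. Col18a1, the collagen that gives rise to endostatin, was at 11.07, 10.27 and 10.72 against 9.20, 9.91 and 8.34 (log2 fold change 1.53, adjusted p = 0.163). Lama4, a laminin chain of vessel walls, was at 1.08 (0.126), Nid1, a nidogen that links laminin to collagen IV, at 0.95 (0.288), Col4a1 at 0.85 (0.272) and Lamb1 at 0.82 (0.261). For Lama4 and Nid1 a second probe set was near 0 (0.01 and 0.02). On the normal diet, where 2.11% of all genes were called higher, 10 of the 18 were called higher and 1 lower, with a median of 1.08.

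Fibroblast and pericyte markers were of the same order. Of 18 measured 15 were positive and 3 negative, and the median was 0.57. Without overlap 11 were higher and 0 lower, beside 12% and 11.5% of all genes. In the main fit 0 were called. With only the day 14 arrays 3 were called higher, beside 76 of all 14217 genes in that fit. The 3 negative members, named after their values were seen, were Pdgfra (-0.40), Dcn (-0.16) and Pi16 (-0.09). Dpt and Lum, named likewise, were at 0.09 and 0.24. Tagln, a smooth muscle and pericyte protein, was at 10.83, 10.68 and 10.95 in diet with perchlorate, against 9.24, 9.52 and 9.43 in diet alone. That gap was wide beside the spread in these 6 arrays, and the log2 fold change was 1.42 (SE 0.41, adjusted p = 0.272). Its adjusted p was 0.0242 with only the day 14 arrays in the fit, and at most 0.734 under the alternatives. Pdgfrb, the pericyte receptor for platelet-derived growth factor, was at 1.31 (adjusted p = 0.196, and -0.08 on the lowest of its 3 probe sets) and Thy1 at 1.15 (0.39). Summed over the list, the intensity ran from 33700 to 37800 in diet with perchlorate and from 25900 to 31200 in diet alone.

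Of 38 measured growth factors and members of the IGF axis 1 was called, Igfbp3, where 0.0633% of all genes were called higher. Without overlap 10 were higher (26.3%) and 5 lower (13.2%), beside 12% and 11.5% of all genes, so the lower share was near that of all genes. The median was 0.19 (0.05 without normalization between arrays). Igfbp2, another IGF binding protein, was at 11.99, 11.50 and 11.59 against 10.42, 11.10 and 10.30 (log2 fold change 1.08, adjusted p = 0.0975). Tgfb3, a transforming growth factor beta, was at 9.53, 9.35 and 9.67 against 8.72, 8.62 and 8.54 (log2 fold change 0.89, SE 0.18, adjusted p = 0.0739). Its adjusted p was 0.0279 with only the day 14 arrays, and at most 0.44 under the alternatives. Both genes were higher in every array of diet with perchlorate than in any of diet alone.

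**Figure D3:**
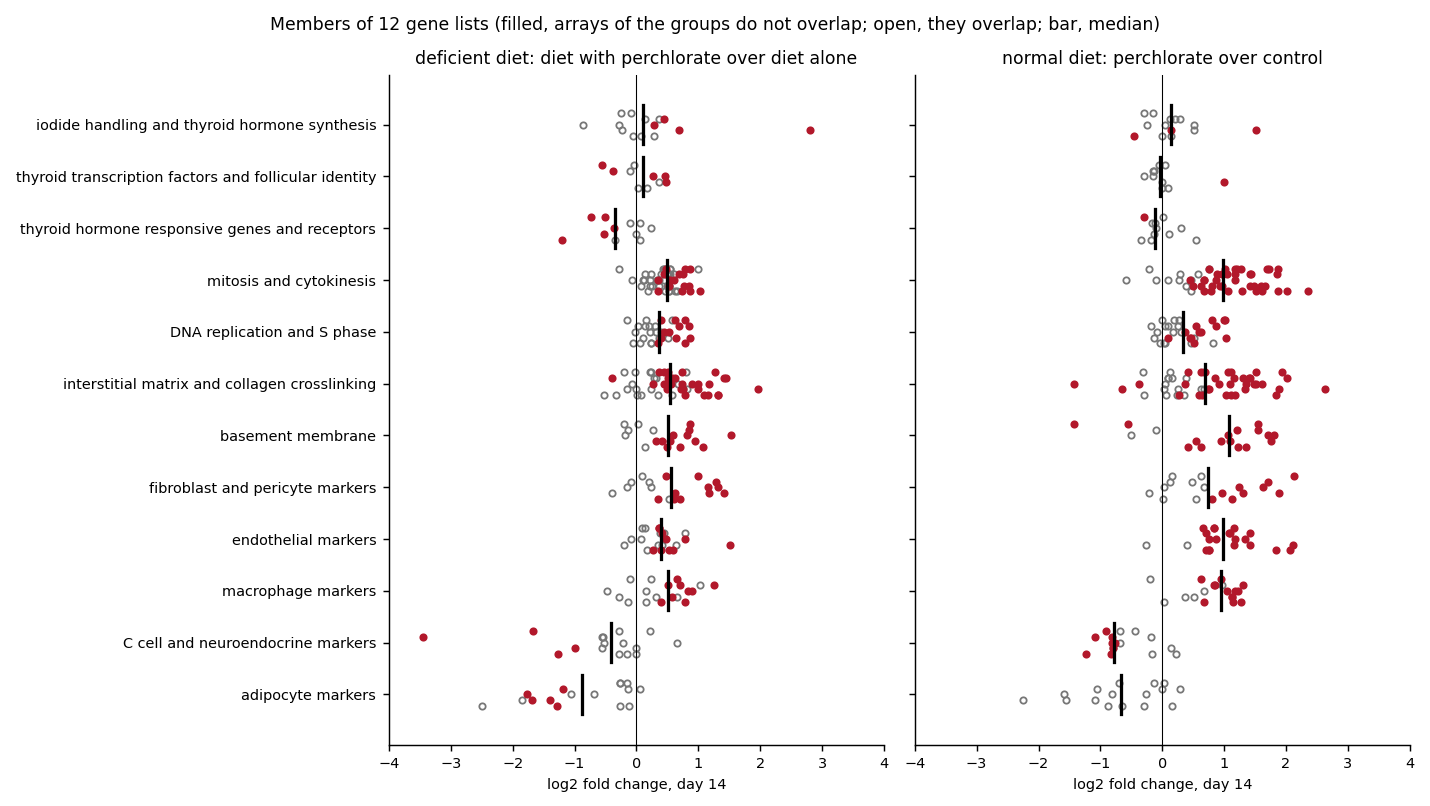
Log2 fold change at day 14 of every measured member of 12 lists, on the deficient diet (left, diet with perchlorate over diet alone) and on the normal diet (right, perchlorate alone over control), filled where the arrays of the 2 groups do not overlap, with a bar at each median. Medians on the left lie between -0.88 (adipocyte markers) and 0.57 (fibroblast and pericyte markers), and those of mitosis, basement membrane, endothelial and macrophage genes are nearer to 0 on the left than on the right.

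Vessel genes had smaller medians. Of 22 measured endothelial markers 10 were higher and 0 lower without overlap (4 and 0 without normalization between arrays), with a median of 0.39 and 0 called. The shares over all genes were 12% higher and 11.5% lower, and 5.36% and 19.7% without that normalization. Vwf, von Willebrand factor, was at 10.99, 10.63 and 10.96 in diet with perchlorate, against 9.31, 9.49 and 9.26 in diet alone. Its log2 fold change was 1.51 (SE 0.46, adjusted p = 0.309). The adjusted p was 0.0242 with only the day 14 arrays, and at most 0.831 under the alternatives. Of 31 angiogenic ligands and receptors 12 were higher and 1 lower without overlap (7 and 1 without normalization, median 0.26). Angpt2, a ligand of the endothelial receptor Tie2, was at 10.89, 10.34 and 10.73 against 9.43, 9.67 and 9.09 (log2 fold change 1.26, adjusted p = 0.122), and the peptide apelin, Apln, at 1.52 (adjusted p = 0.363). Vegfa itself was at 0.11 (chosen after its value was seen). The summed intensity of the endothelial markers ran from 41600 to 46100 in diet with perchlorate and from 29300 to 36900 in diet alone.

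Of 19 macrophage markers 9 were higher and 0 lower without overlap, with a median of 0.51 and 0 called (4 higher and 1 lower without normalization). Over all genes 12% were higher and 11.5% lower without overlap, and 5.36% and 19.7% without normalization. Fcgr3a, an Fc receptor, was at 8.54, 8.60 and 8.84 against 7.25, 7.85 and 7.14 (log2 fold change 1.25, adjusted p = 0.101), and its signalling chain Fcer1g at 0.89 (adjusted p = 0.267). Of the 19 markers 15 were positive and 4 negative. Named after their values were seen, the 4 were Cd163 (-0.47), Cx3cr1 (-0.28), Ccr2 (-0.14) and Itgam (-0.10). The summed intensity of the list ran from 15200 to 21300 in diet with perchlorate and from 11400 to 13300 in diet alone. Of 8 MHC class II genes 6 were positive and 2 negative, and 4 were higher and 0 lower without overlap. Without normalization 1 was higher. RT1-Da was at 0.95 (adjusted p = 0.583). The 2 negative genes, named after their values were seen, were RT1-Ba at -1.41 and RT1-Bb at -1.33, both with overlap. Mast cell and lymphocyte markers had 2 of 13 and 2 of 17 higher without overlap, near the share of all genes. The part of these cells in the matrix and growth factor values was not tested.

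Markers of other tissues in the samples were lower or uneven. Of 16 C cell and neuroendocrine markers 4 were lower and 0 higher without overlap (median -0.41), beside 11.5% and 12% of all genes. Sst, the somatostatin gene of a subset of C cells, was at 4.47, 5.22 and 5.14 in diet with perchlorate, against 9.03, 9.07 and 7.08 in diet alone. Diet with perchlorate was near the floor of the scale and diet alone far above it, with no overlap. The log2 fold change was -3.45 (SE 0.78, adjusted p = 0.101), and control at day 14 was widely spread at 6.71 ± 2.25. Ret, the receptor kinase of C cells, was at -1.67 (adjusted p = 0.264), and Calca, chosen after its value was seen, at -0.16. Of 16 adipocyte markers 5 were lower and 0 higher without overlap (median -0.88). Without normalization between arrays 10 were lower and 0 higher, a setting in which 19.7% of all genes were lower. Adipoq, adiponectin, was at -1.69 (adjusted p = 0.716). The summed intensity of the list was 6280 to 8720 in diet with perchlorate and 8830 to 15300 in diet alone. Parathyroid markers had no gene without overlap among 5 (median -0.54), with Pth at -0.21. Skeletal muscle markers had none among 20 (median -0.41, and -0.99 to 0.46 under the alternatives), and their summed intensity was 6340 to 8710 in diet with perchlorate and 7680 to 28300 in diet alone, the highest being replicate 32. The deposited values used here carry no detection calls, so no marker could be called absent.

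Among metabolic and epithelial lists, the calls were the falls of Shmt1 and Defb1. Of 19 measured genes of amino acid breakdown and folate 4 were higher and 4 lower without overlap (median -0.04), beside 12% and 11.5% of all genes. Uroc1, the urocanase of histidine breakdown, was at 9.44, 8.55 and 10.53 against 7.23, 8.40 and 7.04 (log2 fold change 1.95, adjusted p = 0.217). Of 17 retinoid genes 5 were higher and 3 lower without overlap. Aldh1a3, which makes retinoic acid, was at 8.64, 8.05 and 8.27 against 10.62, 9.63 and 10.21 (log2 fold change -1.83, adjusted p = 0.128), Crabp1, a retinoic acid binding protein, at -1.80 (0.147), and Cyp26b1, which degrades retinoic acid, at 1.45 (0.427). Muc1, a surface mucin, was at -1.27 (adjusted p = 0.0886) among 24 epithelial genes. Hlf, a transcription factor of the clock output, was at -1.27 (adjusted p = 0.0609), and all 4 of its probe sets were negative.

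Stress and housekeeping lists had medians between -0.17 and 0.04, with no gene called. Of 28 measured genes of protein folding in the endoplasmic reticulum 0 were higher and 5 lower without overlap (median -0.09). Without normalization between arrays 0 were higher and 13 lower, a setting in which 19.7% of all genes were lower. Herpud1 was at -0.96 (adjusted p = 0.281) and Ddit3 at -0.66 (adjusted p = 0.207). Of 16 NRF2 targets 5 were lower and 1 higher without overlap (median -0.17), beside 11.5% and 12% of all genes, with the quinone reductase Nqo1 at -0.84 (adjusted p = 0.435). The medians of ribosome biogenesis, glycolysis, the respiratory chain, cholesterol synthesis, lysosome, peroxide removal and clock genes lay between -0.12 and 0.04. Without normalization between arrays the medians of glycolysis, the respiratory chain and cholesterol synthesis were -0.09, -0.09 and -0.12.

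The same exposure on the normal diet gave far more calls, in arrays that share no sample with the comparison on the deficient diet. There 524 of 31042 probe sets were called (1.69%), 437 higher and 87 lower, and 358 of 14217 genes (2.52%). All 13 genes called on the deficient diet had the same sign on the normal diet, without overlap between perchlorate alone and control, and 10 were called there. Over all genes 12.7% were higher and 12.4% lower without overlap on the normal diet. Across all genes the log2 fold changes on the 2 diets correlated at r = 0.509 (Pearson, a description over genes, which are not independent replicates). The 3 not called on the normal diet were Ccn5 (0.82, adjusted p = 0.245), Igfbp3 (0.73, adjusted p = 0.414) and Ahnak2 (0.49, adjusted p = 0.566). Since the 13 genes were chosen by their test on the deficient diet, their sizes on the 2 diets are given side by side only. The change was larger on the deficient diet for 9 of them and smaller for 4, and that choice favours larger sizes there. Ninl was at 1.20 on the deficient and 2.42 on the normal diet, Cxcr4 at 1.28 and 2.04, and Litaf at 0.93 and 1.49. Cthrc1 was at 2.35 and 2.27, and Shmt1 at -1.40 and -1.31. The median shift of the interstitial matrix list was 0.55 on the deficient diet and 0.69 on the normal diet, and that of the endothelial list 0.39 and 0.98.

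**Figure D4:**
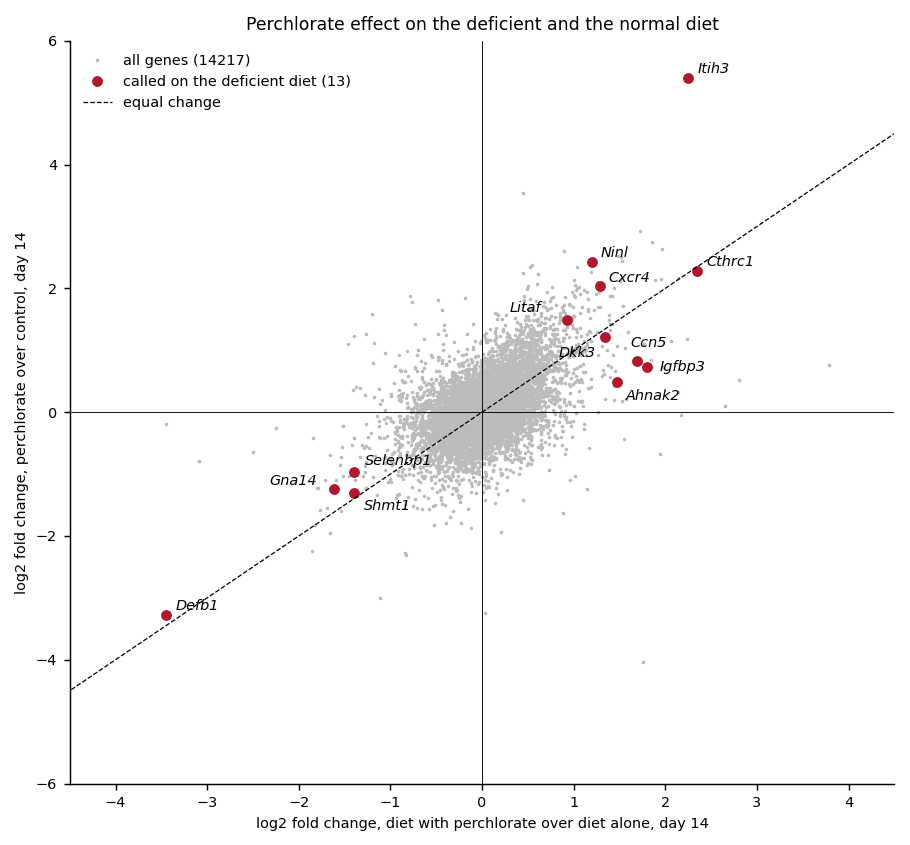
Log2 fold change at day 14 on the deficient diet (x axis, diet with perchlorate over diet alone) and on the normal diet (y axis, perchlorate alone over control) of 14217 genes in grey and the 13 called on the deficient diet in red, with a dashed line of equal change. Itih3 lies far above the line at 2.25 and 5.40, and Cthrc1, Dkk3 and Defb1 lie close to it.

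Tested as a difference of differences, the effect of perchlorate differed between the diets for 1 of 31042 probe sets, that of Itih3 (0.00322%, and 1109 at an unadjusted p under 0.05). Its rise was smaller on the deficient diet (difference -3.15 on the log2 scale, SE 0.40, adjusted p = 0.00337), and the call was lost in a fit of only the day 14 arrays (adjusted p = 0.0674). The next smallest p values did not pass: Aspg, an asparaginase gene, at -3.10, and Mab21l3 at -1.72, each with an adjusted p = 0.0606, and Chodl at -2.29 (adjusted p = 0.12). Aspg was at 8.66 ± 0.14 in diet with perchlorate and 8.22 ± 0.71 in diet alone, and at 8.22 ± 0.14 in perchlorate alone and 4.67 ± 0.12 in control. For Itih3, Aspg and Mab21l3 diet alone was well above control, and the 2 perchlorate groups were closer to each other: Itih3 averaged 13.28 ± 0.10 in diet with perchlorate and 12.62 ± 0.44 in perchlorate alone. Chodl had opposite signs, -1.17 on the deficient diet and 1.11 on the normal diet.

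**Figure D5:**
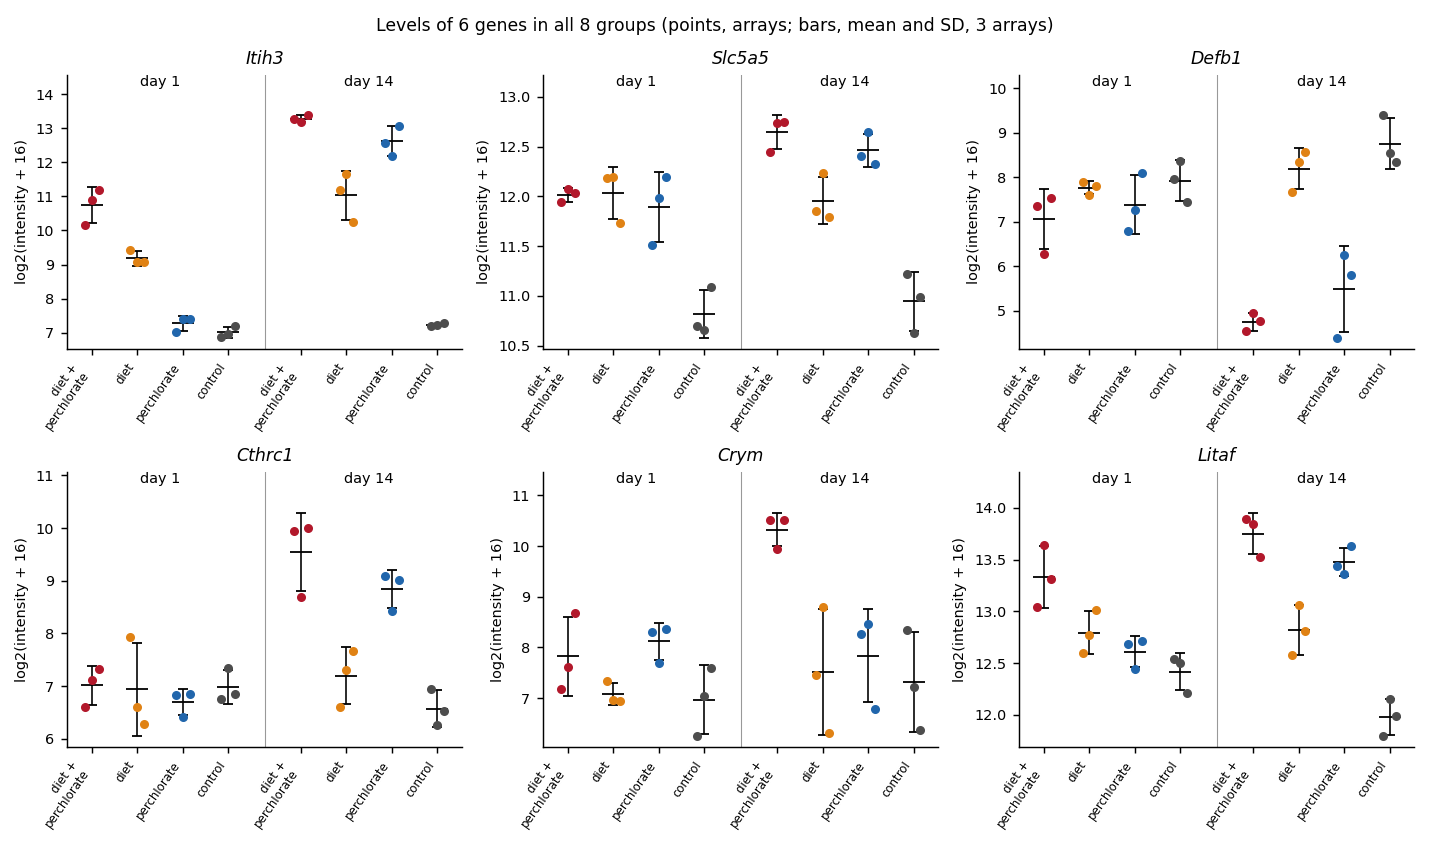
Normalized log2(intensity + 16) of Itih3, Slc5a5, Defb1, Cthrc1, Crym and Litaf in all 8 groups, with day 1 left of day 14, a point per array and bars for the mean and SD of 3 arrays. At day 14 diet with perchlorate is the highest group for all but Defb1, where it is the lowest, and Crym is high only in that group.

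After 1 day of perchlorate on the deficient diet, 1 of 31042 probe sets was called (0.00322%, and 1697 at an unadjusted p under 0.05). This was Mta1, a subunit of a chromatin remodelling complex, at 5.39, 4.98 and 5.64 in diet with perchlorate, against 7.11, 6.80 and 6.80 in diet alone, a fall of 1.57 (SE 0.22, adjusted p = 0.014). At day 14 it was at -0.09. The day 1 call was lost under 6 of 16 alternatives, and its other probe set was at -0.04 at day 1. Of the 13 genes called at day 14, 9 had the same sign at day 1 and 5 were without overlap in that direction. Over all genes 6.70% were higher and 7.26% lower without overlap at day 1. Itih3 averaged 10.75 ± 0.52 in diet with perchlorate and 9.19 ± 0.22 in diet alone at day 1 (log2 fold change 1.56, SE 0.28, adjusted p = 0.135), and Ninl was at 0.90 (adjusted p = 0.272). Cthrc1 and Dkk3 were at 0.08 and -0.13 at day 1, and Slc5a5 at -0.02.

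The difference between day 14 and day 1 in the perchlorate effect was called for 0 of 31042 probe sets (0%, and 1602 at an unadjusted p under 0.05, limma). Among the smallest p values were those of Igfbp2 (1.69, SE 0.34), Ccn5 (1.99, SE 0.43) and Defb1 (-2.74, SE 0.61), each with an adjusted p = 0.565. The medians of the interstitial matrix, basement membrane, fibroblast and endothelial lists were 0.02, 0.10, 0.00 and -0.02 at day 1, against 0.55, 0.52, 0.57 and 0.39 at day 14. Across genes the log2 fold changes of the 2 days correlated at r = 0.139 (Pearson).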

How the data were processed

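The deposited values are the authors' signal intensity per probe set on a linear scale, made with GCOS per the submitters' processing notes. Its version, settings and scaling target are not given in the sources used here, and the deposited columns have different means. RNA came from whole thyroid, per the labels' protocols. Of 31099 probe sets 57 controls were left out. Values were taken as log2(intensity + 16) and quantile normalized over all 24 arrays, and 31042 probe sets were fitted with limma 3.58.1 in R 4.3.3. The fit had 1 mean per group for all 8 groups, so the spread is shared, with 16 residual degrees of freedom. Moderated two-sided tests (eBayes, variance trend on) were adjusted by Benjamini-Hochberg over all 31042 and read at 0.05, and every adjusted p in the text is from such a fit. SE is the standard error of a log2 fold change. Nothing says that the arrays came from separate animals, so the p-values reflect only sample-to-sample spread, possibly technical. The precision is limited by the number of arrays.

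Symbols came from the platform's annotation (20826 probe sets with 1 symbol, 436 with several, 9780 with none), were checked against RefSeq on GRCr8, and a gene stands for its probe set with the highest mean. The comparison, the members and the 37 gene lists were chosen with earlier results of these data known. Named genes are the up to 15 largest called rises and falls without overlap, all measured hormone synthesis genes, up to 5 members of each other list by smallest p, and the 8 smallest p of each difference; others are marked in the text as chosen after their values were seen. Lists are described by counts and medians, with no test. On simulated data with 24 arrays and these 31042 probe sets, log2 changes were planted only in probe sets at or above the 40th percentile of mean level. There 50% of 100 changes of size 1 and 93% of 100 of size 2 were recovered on the deficient diet at day 14. False calls numbered 4. Recovery in dimmer probe sets was not simulated. The simulated noise was normal and independent between probe sets, and the adjusted p depends on how many changes are present. The recovered shares are therefore not the chance of a call in the real data, where 19 probe sets were called. Alternatives were the scaling, the pseudocount, a filter on dim probe sets, array weights, the variance trend, the arrays in the fit and the probe set of a gene.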

Additional observations from a re-analysis of the deposited data

Results flagged for a closer look

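The effect of perchlorate on Itih3 differed between the deficient and the normal diet by the test of the difference itself (-3.15 on the log2 scale, SE 0.40, adjusted p = 0.00337 in limma). It rose by 2.25 on the deficient diet and by 5.40 on the normal diet at day 14. Diet with perchlorate averaged 13.28 ± 0.10 and diet alone 11.03 ± 0.72, and perchlorate alone averaged 12.62 ± 0.44 and control 7.23 ± 0.04 (SD, n = 3 each). The perchlorate groups are thus nearer to each other than the groups on normal water. The difference ranged from -3.54 to -2.78 over 23 alternatives, and its adjusted p from 7.04e-05 to 0.0674.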

How the results depend on the processing

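For perchlorate on the deficient diet at day 14 the main settings called 19 probe sets (13 higher and 6 lower). Fits with another spread or weights called 372 (array weights), 152 (day 14 arrays only), 111 (without the 2 day 1 arrays that stand apart), 51 (only the groups compared) and 11 (no variance trend). With other values they called 9 (as deposited, 2 higher and 7 lower), 12 (pseudocount 1, 5 higher and 7 lower), 45 (pseudocount 64) and 39 (the 18625 probe sets above the 40th percentile). Leaving out 1 array left 2 to 27. On the normal diet the count of 524 became 1392 with array weights, 1488 with day 14 arrays only, 802 with only the groups compared, 1144 without the 2 arrays, and 156 to 416 leaving out 1 array. For the difference between diets it was 8 with array weights, 4 with probe sets averaged per gene, 3 above the 40th percentile, 3 with pseudocount 1, 3 without the 2 arrays, 0 with day 14 arrays only or only the groups compared, and 1 to 3 leaving out 1 array. For day 1 it was 21 with array weights, 38 without the 2 arrays, 0 as deposited, with gene means and with only the groups compared, and 0 to 3 leaving out 1 array. For the difference between days it was 0 throughout, and 0 to 1 leaving out 1 array. Some of these fits have fewer arrays or probe sets by construction, and otherwise the cause was not tested.

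Of the 13 called genes, 12 lost the call under 1 or more alternatives: Itih3 under 1, and the others, Defb1 aside, under 5 to 10 of 17. Of 102 other named genes 51 gained a call under 1 or more. Signs turned for 3 uncalled genes near 0. Slc26a4 was at -0.00 as deposited, -0.11 without diet with perchlorate replicate 29, and between -0.18 (without diet replicate 34) and 0.37 over all arrays left out. Dio2 was at -0.05 without diet replicate 32, and between -0.26 (without diet with perchlorate replicate 29) and 0.40 leaving out 1 array. Duoxa1 was between -0.15 and 0.11 (without diet replicate 34) leaving out 1 array, and at -0.18 as deposited. No paired analysis was possible because the title numbers of the arrays differ in every group.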

Other observations

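Some genes with large log2 fold changes between diet with perchlorate and diet alone at day 14 passed no test, and they were chosen after their values were seen. Bpifa1, a secreted protein of airway epithelium, had the largest positive value (11.08 against 7.30, log2 fold change 3.78, SE 1.02, adjusted p = 0.224). Vnn1, a pantetheinase, was at 2.14 (adjusted p = 0.175), with 0.32 on the normal diet. Scd, the stearoyl-CoA desaturase of lipid-storing cells, was at -3.09 (SE 1.70, adjusted p = 0.795), beside the lower adipocyte markers.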
